A study of Mus musculus with 20 samples.

Results

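A set of 9 genes that build, move and take apart the ceramides of the skin barrier was followed in mouse skin: Abca12, Elovl4, Cers3, Pnpla1, Cyp4f39, Ugcg, Sptlc2, Smpd1 and Asah1. They were picked by name, and each was read by its brightest probe set that carries a single gene symbol; all 9 of the 9 were found among 22180 genes on the array. Whole abdominal skin from 20 mice was hybridised, with 5 arrays in each of 4 groups. The knockout (KO) groups carried floxed Zfp36 on both alleles together with K14 cre, and received imiquimod or a mock treatment. The control groups were littermates with the same floxed alleles (zfp36 fl/fl) and no Cre named in the labels, and received imiquimod or the mock treatment as well. Imiquimod, an agonist of Toll-like receptor 7 that inflames mouse skin, was applied on 5 successive days, and skin was taken 4 hours after the final dose; the labels give no age for the mice. Zfp36 encodes tristetraprolin, which binds AU-rich elements of messenger RNAs and promotes their decay. The keratin 14 promoter drives Cre in basal keratinocytes and so in the epidermis they give rise to, so dermal, immune, fat and muscle cells of the same sample keep Zfp36. The values are probe set intensities on a scale taken as log2, folds were taken as 2 to the power of the difference, and no measure of background was used.

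Ceramides are, with cholesterol and free fatty acids, the lipids that fill the space between the dead cells of the stratum corneum and hold water in. Granular keratinocytes make a special form, the acylceramides, in steps: serine palmitoyltransferase, of which Sptlc2 is a catalytic subunit, starts the sphingoid base; Elovl4 lengthens a fatty acid to ultra-long chains; Cyp4f39, the mouse counterpart of human CYP4F22, hydroxylates the far end of that chain; Cers3 joins chain and base; and Pnpla1 adds linoleate. Ugcg then attaches glucose, and the transporter Abca12 loads the product into lamellar bodies for secretion. Smpd1, the acid sphingomyelinase, frees ceramide from sphingomyelin, and Asah1, the acid ceramidase, splits ceramide. In humans, loss of ABCA12, CERS3, PNPLA1, CYP4F22 or ELOVL4 causes forms of ichthyosis.

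Since most of these genes moved together, the 250 bases before the RefSeq start site were searched for short motifs in the 8 members present in a RefSeq promoter table of build GRCm38.p6 (the missing entry is Asah1). Both strands were searched for CACCC, the core bound by Krüppel-like factors, and for the GC box GGGCGG, a site of Sp1 and its relatives. The AP-1 motif was read as TGANTCA, the E-box searched was CACGTG, a palindrome that several basic helix-loop-helix factors bind, and the letters of the TATA box were TATAAA. An NF-kB motif of 10 letters is given here by name. It was a single narrow form, and other forms of NF-kB site were not searched. The Krüppel-like letters were present upstream of 4 of the 8 members (Cers3, Pnpla1, Ugcg and Smpd1), against 52% of 32851 promoters. The GC box was present upstream of 4 of the 8 (Elovl4, Ugcg, Sptlc2 and Smpd1), against 32.7%. No member held the AP-1, E-box, TATA or NF-kB letters in this window, which 6.75%, 6.02%, 12.4% and 0.356% of all promoters did. The windows differed in base composition, with 49.6% G and C for Cers3 and 80.4% for Ugcg. The windows printed hold the Krüppel-like letters only, the GC box only, both and neither, so that the upstream sequences of genes that all rose can be set side by side; capitals mark either motif or its reverse complement. They lie at chr7:66743254-66743503 on the plus strand (Cers3, at a start site inside the annotated gene), chr9:83806306-83806555 on the minus strand (Elovl4, where both copies overlap), chr7:105554110-105554359 on the plus strand (Smpd1) and chr1:71414911-71415160 on the minus strand (Abca12).
Cers3: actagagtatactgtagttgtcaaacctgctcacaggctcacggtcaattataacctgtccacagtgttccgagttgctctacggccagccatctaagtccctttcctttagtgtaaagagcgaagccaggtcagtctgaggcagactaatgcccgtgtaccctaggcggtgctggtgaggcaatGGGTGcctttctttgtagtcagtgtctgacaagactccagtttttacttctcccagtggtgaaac
Elovl4: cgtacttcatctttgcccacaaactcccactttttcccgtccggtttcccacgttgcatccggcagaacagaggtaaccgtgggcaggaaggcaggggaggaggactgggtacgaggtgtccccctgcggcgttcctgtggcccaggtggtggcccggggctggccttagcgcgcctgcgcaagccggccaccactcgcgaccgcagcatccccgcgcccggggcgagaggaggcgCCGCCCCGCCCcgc
Smpd1: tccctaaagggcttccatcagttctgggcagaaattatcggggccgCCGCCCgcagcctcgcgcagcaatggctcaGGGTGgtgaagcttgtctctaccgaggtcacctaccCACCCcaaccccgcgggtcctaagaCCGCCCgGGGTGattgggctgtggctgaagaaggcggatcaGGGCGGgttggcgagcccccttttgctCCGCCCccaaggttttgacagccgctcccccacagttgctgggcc
Abca12: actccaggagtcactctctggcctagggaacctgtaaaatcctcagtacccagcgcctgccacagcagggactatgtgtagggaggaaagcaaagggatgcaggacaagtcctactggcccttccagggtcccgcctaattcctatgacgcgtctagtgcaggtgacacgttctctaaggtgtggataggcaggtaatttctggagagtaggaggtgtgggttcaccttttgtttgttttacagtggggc

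Before the results, the labels and the samples were checked. Zfp36 itself was lower in KO skin: under imiquimod it read 5.47, 7.41, 6.12, 7.18 and 5.82 in KO arrays and 8.04, 8.40, 7.99, 7.89 and 7.68 in control arrays, and the groups did not overlap (two-sided exact permutation test, p = 0.00794, the lowest possible with 5 arrays a side). In mock skin it read 5.12, 6.84, 7.12, 4.61 and 3.47 in KO arrays and 7.28, 7.45, 7.74, 7.22 and 7.61 in control arrays, again without overlap and with the same exact permutation p; without control mock replicate 3 that exact p was 0.0556. The genome-wide limma fit did not call Zfp36 (adjusted p = 0.221 under imiquimod and 0.999 in mock). Whether its probe set lies in the deleted part is not known here, and the other skin cells keep the gene. Hair shaft and follicle genes set some arrays apart: 0 of 16 passed between imiquimod and mock (medians -2.10 in KO and -2.94 in control skin). The mean of 16 of them lay at 9.14 in KO imiquimod replicate 1 and 9.39 in control imiquimod replicate 5, against 5.48 to 7.35 in the other imiquimod arrays. It lay at 6.04 in KO mock replicate 3, 7.94 in KO mock replicate 2 and 6.01 in control mock replicate 5, against 9.27 to 10.21 in the other mock arrays. Markers of granular and suprabasal keratinocytes, the cells that make barrier ceramides, were bright in every sample, with a mean of 12 genes from 9.15 to 10.41.

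Imiquimod raised 8 of the 9 genes in KO skin, by 1.69-fold to 2.65-fold, and the same 8 in control skin, by 1.54-fold to 2.45-fold. The exception was Asah1. In limma over all genes, 20.8% of 22180 genes passed in KO skin (11.1% as higher) and 10.8% in control skin (6.47% as higher), at an adjusted p under 0.05. The median log2 difference of the 9 genes was 0.97 in KO and 1.15 in control skin, against -0.002 and -0.004 over all genes. In whole skin, more RNA per cell and more cells of a type cannot be told apart. The 8 genes are described in the order of their steps, and each p below is from limma with Benjamini-Hochberg adjustment over 22180 genes.

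**Figure D1:**
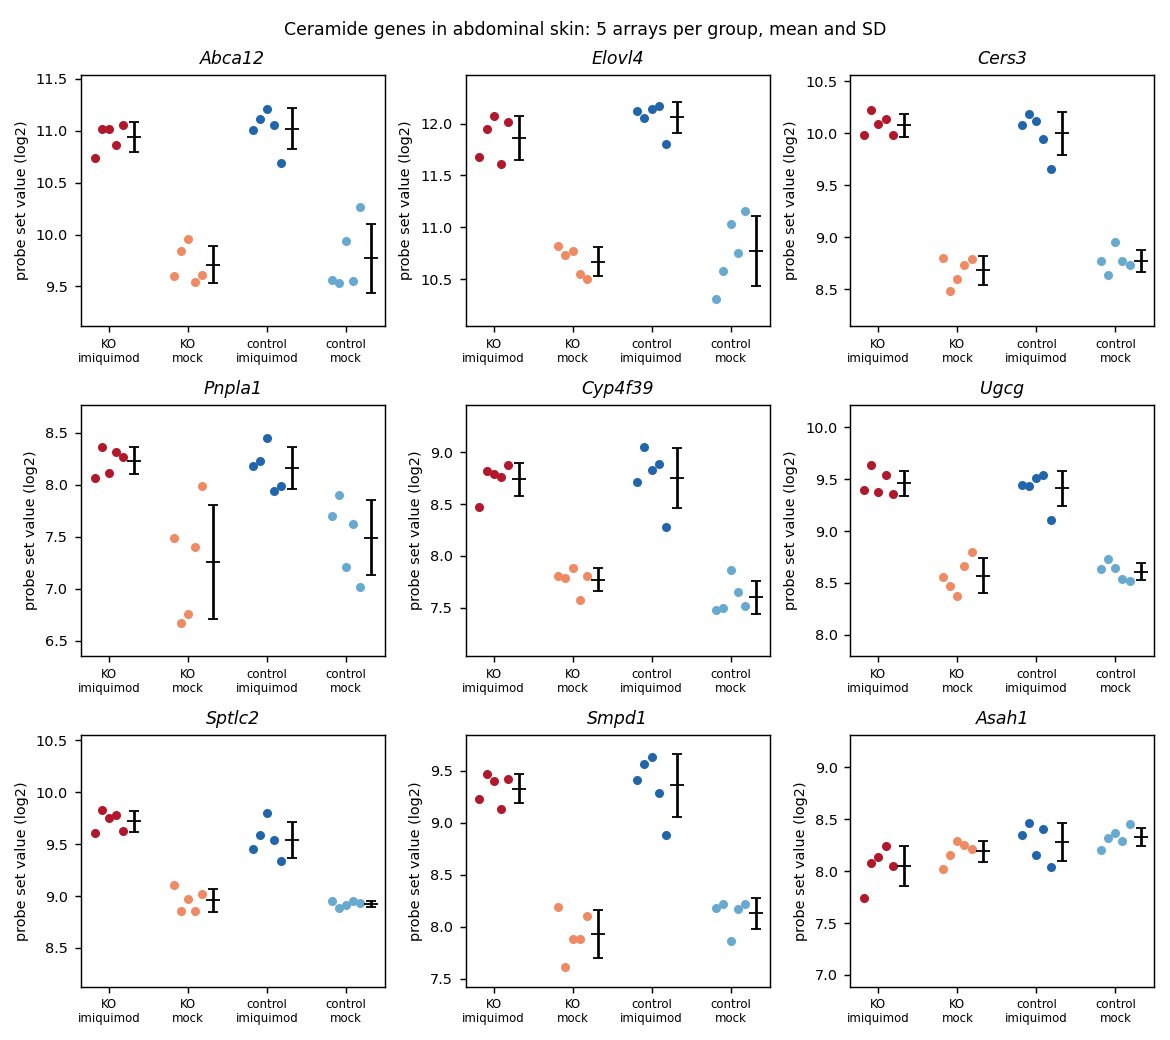
Probe set value (log2) of each of the 9 ceramide genes, 1 point per array in the order of replicate numbers, with the mean and SD of each group in black (n = 5); every panel spans the same log2 range. For 8 genes all imiquimod arrays lie above all mock arrays of the same genotype, and for Asah1 the groups overlap.

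Sptlc2, a subunit of the enzyme that starts every ceramide, had the smallest rise of the 8 in both genotypes. It ranged from 9.61 to 9.83 in KO imiquimod arrays and from 8.86 to 9.11 in KO mock arrays, a log2 difference of 0.76 ± 0.08 (SE, n = 5 per group, adjusted p = 1.08e-06). In control skin it ranged from 9.34 to 9.80 with imiquimod and from 8.88 to 8.95 with mock, a difference of 0.62 ± 0.08 (SE, n = 5 per group, adjusted p = 2.04e-05). The mock controls were its tightest group, with an SD of 0.03.

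Elovl4, the elongase for ultra-long fatty acids, lay far apart between treatments. In KO skin it read 11.68, 11.95, 12.07, 11.61 and 12.01 with imiquimod, against 10.82, 10.73, 10.77, 10.55 and 10.50 with mock. Control skin gave 12.12, 12.05, 12.14, 12.17 and 11.80 with imiquimod, against 10.31, 10.58, 11.03, 10.75 and 11.16 with mock. Every treated array exceeded every mock array of its genotype, and the mock controls were the most scattered group. The rise was 2.28-fold in KO skin (log2 difference 1.19 ± 0.14, SE, adjusted p = 2.75e-06) and 2.45-fold in control skin (1.29 ± 0.14, SE, adjusted p = 1.59e-06).

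Cyp4f39, the fatty acid omega-hydroxylase, ranged from 8.47 to 8.88 in KO imiquimod arrays and from 7.58 to 7.88 in KO mock arrays, 1.96-fold apart (adjusted p = 6.92e-06). The control arrays ranged from 8.28 to 9.05 with imiquimod and from 7.48 to 7.86 with mock, 2.22-fold apart (adjusted p = 1.27e-06). The lowest treated control was replicate 5, the array with high hair genes.

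Cers3, the ceramide synthase for ultra-long chains, had the smallest p of the 9 genes in both genotypes. In KO skin it read 9.98, 10.23, 10.09, 10.14 and 9.98 with imiquimod, against 8.80, 8.48, 8.60, 8.73 and 8.79 with mock. In control skin it read 10.08, 10.19, 10.12, 9.95 and 9.66 with imiquimod, against 8.77, 8.64, 8.95, 8.77 and 8.73 with mock. The gap between the groups was wider than the range within either. Cers3 rose 2.65-fold in KO skin (95% interval 2.30 to 3.04, adjusted p = 2.93e-09) and 2.34-fold in control skin (95% interval 2.04 to 2.69, adjusted p = 2.94e-08).

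Pnpla1, which adds linoleate in the last step of acylceramide synthesis, was the least certain of the 8. In KO skin it read 8.07, 8.36, 8.11, 8.32 and 8.27 with imiquimod, against 7.49, 6.67, 6.76, 7.40 and 7.99 with mock. Control skin gave 8.18, 8.23, 8.45, 7.94 and 7.99 with imiquimod, against 7.70, 7.90, 7.21, 7.62 and 7.02 with mock. The treated arrays were close together and the mock arrays spread widely, with the highest mock array of each genotype just below its lowest treated array. The log2 difference was 0.96 ± 0.20 in KO skin (SE, n = 5 per group, adjusted p = 0.0019) and 0.67 ± 0.20 in control skin (SE, n = 5 per group, adjusted p = 0.0395). The call in control skin rested on single arrays: leaving out mock replicate 3, 4 or 5 gave an adjusted p of 0.099, 0.0557 or 0.0911, and leaving out imiquimod replicate 1, 2 or 3 gave 0.0761, 0.0825 or 0.111. It was also lost with quantile normalization (adjusted p = 0.0601). A second, dimmer Pnpla1 probe set averaged 4.60 with imiquimod and 4.56 with mock in KO skin, and 4.78 and 4.62 in control skin; with the mean of both probe sets, the Pnpla1 difference was 0.50 in KO and 0.42 in control skin (adjusted p = 0.0032 and 0.0209).

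Ugcg, which makes glucosylceramide, ranged from 9.36 to 9.64 in KO imiquimod arrays and from 8.37 to 8.80 in KO mock arrays, 1.86-fold apart (adjusted p = 8.98e-07). Control arrays lay between 9.11 and 9.54 with imiquimod and between 8.52 and 8.73 with mock, 1.73-fold apart (adjusted p = 5.83e-06). Its probe set thus separated the treatments in both genotypes with less scatter than that of Pnpla1.

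Abca12, the lipid transporter of lamellar bodies, completes the export step. In KO skin it read 10.74, 11.02, 11.02, 10.86 and 11.06 with imiquimod, against 9.60, 9.84, 9.96, 9.54 and 9.61 with mock. Among controls, Abca12 read 11.01, 11.11, 11.21, 11.06 and 10.69 with imiquimod, against 9.56, 9.53, 9.94, 9.55 and 10.27 with mock. The highest mock array of all was control replicate 5, the mock array of lowest hair level in that genotype. Abca12 rose by nearly the same factor in both genotypes, 2.35-fold in KO (adjusted p = 1.57e-06) and 2.37-fold in control skin (adjusted p = 2.19e-06).

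The pair of genes that release and destroy ceramide parted ways. Smpd1, which frees ceramide from sphingomyelin, read 9.23, 9.47, 9.40, 9.13 and 9.42 in KO imiquimod arrays, against 8.19, 7.61, 7.88, 7.88 and 8.10 in KO mock arrays. In control skin it read 9.41, 9.57, 9.63, 9.29 and 8.88 with imiquimod, against 8.18, 8.22, 7.86, 8.17 and 8.22 with mock. Treated arrays were again above all mock arrays, with rises of 2.64-fold in KO (adjusted p = 2.34e-07) and 2.34-fold in control skin (adjusted p = 1.83e-06). A second Smpd1 probe set differed by 1.24 on the log2 scale between imiquimod and mock in both KO and control skin. Asah1, the acid ceramidase, read 7.74, 8.08, 8.14, 8.24 and 8.05 in KO imiquimod arrays, against 8.02, 8.16, 8.29, 8.25 and 8.21 in KO mock arrays. Among controls it read 8.35, 8.46, 8.16, 8.41 and 8.04 with imiquimod, against 8.20, 8.32, 8.37, 8.29 and 8.45 with mock. The treated and mock arrays of Asah1 overlapped in both genotypes. Its log2 difference was -0.14 in KO skin (95% interval -0.34 to 0.06, adjusted p = 0.38) and -0.04 in control skin (95% interval -0.24 to 0.16, adjusted p = 0.862), intervals that lie below the estimate of each other member.

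Of 8 other measured genes of the lysosome, where Smpd1 and Asah1 act, 1 rose and 1 fell in each genotype. Of all genes, 11.1% rose and 9.71% fell in KO skin, and 6.47% and 4.37% in control skin. The protease gene Ctsd rose by 0.46 in KO and 0.49 in control skin, and the protease gene Ctsb was at -0.37 and -0.57. The medians of the 8 were 0.02 in KO and -0.01 in control skin. Across the 9 members, the 8 that rose also had groups that did not overlap in either genotype. That separation upwards was seen for 7.16% of all genes in KO and 5.6% in control skin.

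KO and control skin were then compared within each treatment, which asks whether loss of Zfp36 in keratinocytes alters these genes. None of the 9 passed limma under imiquimod, where 0.546% of all genes did, nor in mock skin, where 0.00902% did. At an unadjusted p under 0.05 there were 2 of 9 under imiquimod, where 10% of all genes were, and 0 of 9 in mock, where 3.19% were. For all 9, KO and control arrays overlapped in both treatments; over all genes, 2.47% did not overlap under imiquimod and 0.41% in mock. The 2 were Asah1, which averaged 8.05 ± 0.19 in KO and 8.28 ± 0.18 in control imiquimod arrays (SD, n = 5 each; log2 difference -0.23, adjusted p = 0.385), and Sptlc2, at 9.72 ± 0.10 in KO and 9.54 ± 0.17 in control imiquimod arrays (SD, n = 5 each; log2 difference 0.18, adjusted p = 0.462). With the brightest probe sets, the estimates under imiquimod ran from -0.23 for Asah1 to 0.18 for Sptlc2, and in mock from -0.23 for Pnpla1 to 0.17 for Cyp4f39. The second Smpd1 probe set averaged 7.88 in KO and 8.21 in control skin under imiquimod, and 6.64 and 6.97 in mock. With the mean of both probe sets, Smpd1 differed by -0.17 under imiquimod and -0.26 in mock (limma, adjusted p = 0.806 and 0.999). The intervals bound what could have been missed: under imiquimod the 95% interval was -0.36 to 0.20 for Abca12, -0.48 to 0.09 for Elovl4 and -0.12 to 0.28 for Cers3. Pnpla1 had the widest, -0.36 to 0.49.

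The difference between the imiquimod responses of KO and control skin was tested directly as an interaction. None of the 9 passed, against 0.018% of all genes, and 0 had an unadjusted p under 0.05 in limma, against 6.75% of all genes. For Abca12 the responses differed by -0.02 on the log2 scale (95% interval -0.41 to 0.38, adjusted p = 0.994), for Cers3 by 0.18 (95% interval -0.11 to 0.46, adjusted p = 0.868) and for Smpd1 by 0.17 (95% interval -0.21 to 0.56, adjusted p = 0.926). Pnpla1 had the largest estimate, 0.30 (95% interval -0.31 to 0.90, adjusted p = 0.919).

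**Figure D2:**
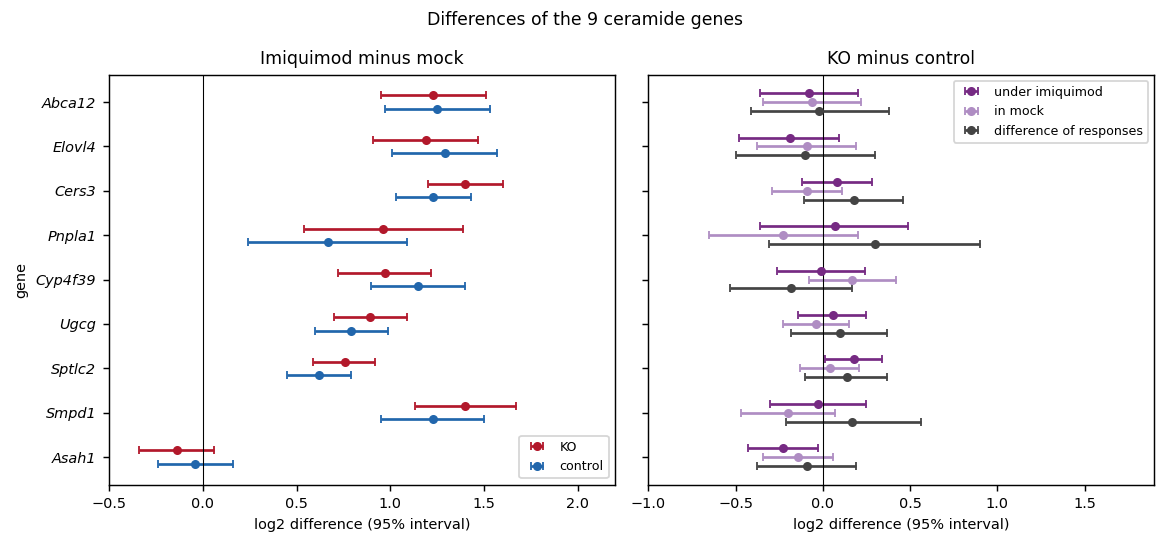
Log2 differences of the 9 genes with 95% intervals: imiquimod minus mock in KO and control skin on the left, and KO minus control under imiquimod, in mock and as the difference of both responses on the right. On the left 8 genes lie above 0 in both genotypes and Asah1 lies near 0; on the right every interval but those of Asah1 and Sptlc2 under imiquimod covers 0.

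A wider list of the pathway, 57 measured genes of 60, showed which neighbouring steps moved. In KO skin 26 rose and 5 fell with imiquimod (9.71% of all genes fell), and in control skin 33 rose and 2 fell (4.37% of all genes fell). With the mean of the hair genes as a covariate, 25 rose and 11 fell in KO skin, and 27 rose and 5 fell in control skin. No share of all genes was taken for the fit with this covariate, here or for the list counts below. These counts therefore have no background beside them. Without the covariate, the median log2 difference of the 57 was 0.38 in KO and 0.63 in control skin. The group that processes acylceramide and builds the lipid envelope of the cornified cell rose almost throughout, with 9 of 11 higher in KO and 11 of 11 in control skin, at medians of 1.11 and 1.20. Sdr9c7, a dehydrogenase that acts on oxidised linoleate of acylceramide, rose 4.38-fold in KO and 3.50-fold in control skin (adjusted p = 9.63e-08 and 1.21e-06). The lipoxygenase gene Alox12b rose by 1.63 in KO and 1.85 in control skin, and the epidermal lipase gene Lipk by 1.26 and 1.85. Lipn, another epidermal lipase gene, rose 2.95-fold in KO and 3.99-fold in control skin.

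Of 14 genes for sphingoid bases and ceramide synthesis, 6 rose and 2 fell in KO skin, and 7 rose and 1 fell in control skin. The desaturases that turn dihydroceramide into ceramide rose in both genotypes: Degs2, which also makes phytoceramide, by 1.67 in KO and 1.69 in control skin (adjusted p = 2.87e-07 and 3.62e-07), and Degs1 by 1.65 and 1.55. Sptlc1, the partner subunit of Sptlc2, rose by 1.13 in KO and 1.02 in control skin. Fa2h, which hydroxylates fatty acids of ceramides, was at 0.84 in KO skin (adjusted p = 0.0537) and rose by 1.95 in control skin (adjusted p = 0.00016); the difference between the responses did not pass the test of the interaction (-1.11, adjusted p = 0.654). Without KO imiquimod replicate 1 or 4, or KO mock replicate 3, Fa2h passed in KO skin as well (adjusted p = 0.0465, 0.00614 and 0.0482). Ceramide synthase Cers6 went the other way from Cers3, at -0.50 in KO (adjusted p = 0.00984) and -0.44 in control skin (adjusted p = 0.0393). The Cers6 call in control skin also rested on single arrays, with an adjusted p of 0.0881, 0.125 or 0.0517 when imiquimod replicate 1, 3 or 4 was left out and of 0.0744, 0.0984 or 0.0733 when mock replicate 1, 3 or 4 was. In KO skin Cers6 was lost without the arrays farthest in hair genes (-0.43, adjusted p = 0.0599). Ormdl3, a regulator of serine palmitoyltransferase, fell by 0.40 in KO skin (adjusted p = 0.02) and was at -0.21 in control skin (adjusted p = 0.303); leaving out KO imiquimod replicate 4 or KO mock replicate 2 ended the KO call (adjusted p = 0.0564 and 0.0508). With the hair covariate Ormdl3 passed in control skin as well, at -0.40 (adjusted p = 0.0381), while Cers6 lost its call there (adjusted p = 0.0741).

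**Figure D3:**
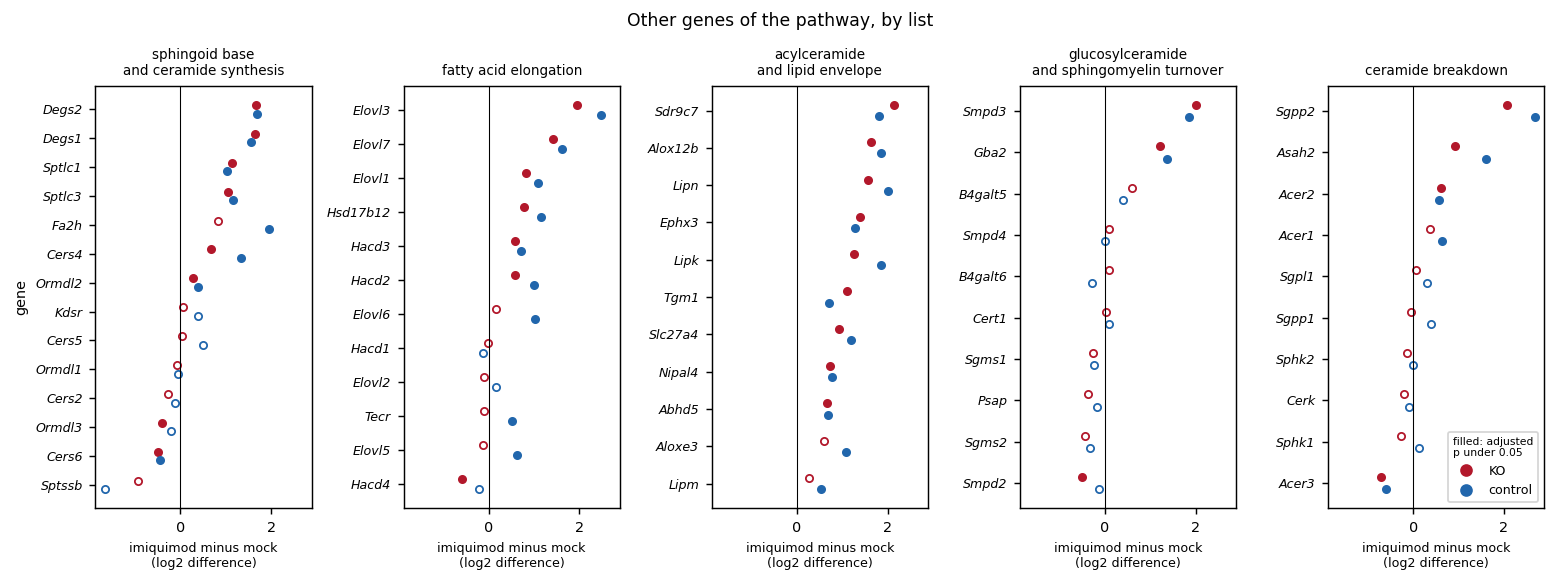
Imiquimod minus mock (log2 difference) for 57 other genes of the pathway in 5 lists, each ordered by its value in KO skin; filled points passed limma over all genes at an adjusted p under 0.05. In the acylceramide and lipid envelope list all points lie right of 0, and in the turnover list Smpd3 and Gba2 stand apart.

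Fatty acid elongation genes had 6 of 12 higher and 1 lower in KO skin and 9 of 12 higher in control skin. With the hair covariate the control count was 6 higher and 1 lower, since Elovl5 (0.41, adjusted p = 0.184), Elovl6 (0.61, adjusted p = 0.101) and Tecr (0.25, adjusted p = 0.369) lost their calls; Tecr, an enoyl reductase gene at 0.52 as reported (adjusted p = 0.0405), was also lost when most single control arrays were left out. Elovl3, an elongase of sebaceous glands and hair follicles, rose by 1.95 in KO and 2.47 in control skin, and Elovl7, for long-chain fatty acids, by 1.41 and 1.61. Elovl1, for very long chains, rose by 0.82 in KO and 1.09 in control skin, and Hsd17b12, the ketoreductase of the elongation cycle, by 0.77 and 1.16. The dehydratase gene Hacd4 fell by 0.58 in KO skin (adjusted p = 0.0291) and was at -0.20 in control skin; without the arrays farthest in hair genes it was at -0.36 in KO skin (adjusted p = 0.15), and the call was also lost without KO imiquimod replicate 1, 2 or 5 or KO mock replicate 2 or 3. With the hair covariate Hacd4 fell in control skin too (-0.54, adjusted p = 0.0429). Markers of sebaceous glands, which hold part of these enzymes, rose in 4 of 9 and fell in 2 of 9 in KO skin, and rose in 4 and fell in 1 in control skin; their mean ranged from 7.45 to 8.25 in KO imiquimod and 7.40 to 8.07 in KO mock arrays, and from 8.20 to 8.62 in control imiquimod and 7.11 to 8.15 in control mock arrays. The wax synthase gene Awat1 rose 4.00-fold in KO and 6.14-fold in control skin. The list did not move as a whole with Awat1. The lowest log2 difference among the 9 markers was -1.98 in KO and -1.05 in control skin, and the medians were 0.24 and 0.62. The part of sebaceous glands in the elongation genes was not tested.

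Over all genes, limma called 20.8% in KO and 10.8% in control skin with imiquimod. The turnover list of glucosylceramide and sphingomyelin had 2 of 10 higher and 1 lower in KO and 2 of 10 higher in control skin. With the hair covariate it was 2 higher and 3 lower in KO, and 2 higher and 2 lower in control skin; the genes that were added, chosen by that call, were Psap, the precursor of lysosomal saposins (-0.56 in KO and -0.44 in control skin, adjusted p = 0.00171 and 0.0384), and the sphingomyelin synthase gene Sgms1 (-0.42 and -0.44, adjusted p = 0.00355 and 0.0112). Smpd3, the neutral sphingomyelinase, rose 4.00-fold in KO and 3.60-fold in control skin (adjusted p = 2.78e-08 and 1.24e-07), in the same direction as Smpd1. Gba2, the glucosylceramidase outside lysosomes, rose by 1.20 in KO and 1.37 in control skin. Smpd2, another neutral sphingomyelinase gene, fell by 0.50 in KO skin (adjusted p = 0.000642) and was at -0.13 in control skin (adjusted p = 0.447); that difference of responses did not pass (-0.37, adjusted p = 0.618).

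Ceramide breakdown had 3 of 10 higher and 1 lower in KO, and 4 of 10 higher and 1 lower in control skin. Sgpp2, a phosphatase of sphingosine 1-phosphate, rose 4.18-fold in KO and 6.37-fold in control skin (adjusted p = 2.28e-06 and 1.25e-07). The neutral ceramidase gene Asah2 rose by 0.93 in KO and 1.61 in control skin (adjusted p = 0.0168 and 0.000354), and Acer2, an alkaline ceramidase gene, by 0.62 and 0.56. With the hair covariate the list had 3 higher and 4 lower in KO, and 2 higher and 1 lower in control skin. Acer2 (0.34, adjusted p = 0.0543) and Acer1 (0.22, adjusted p = 0.302) lost their calls in control skin. Acer1 was at 0.64 there as reported (adjusted p = 0.0244), a call also lost without some single control arrays. The lower calls added in KO skin were Sphk1, Sphk2 and Cerk (-0.44, -0.27 and -0.31, adjusted p = 0.0024, 0.0261 and 0.0291). Acer1 and these added genes were chosen by that change of call. Another alkaline ceramidase gene, Acer3, fell by 0.70 in KO and by 0.59 in control skin (adjusted p = 1.31e-06 and 1.7e-05).

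Between KO and control skin, 0 of the 57 passed limma under imiquimod, in mock or in the interaction. At an unadjusted p under 0.05 there were 19 of 57 under imiquimod, against 10% of all genes in either direction. In mock there were 3 of 57, against 3.19% of all genes, and in the interaction 9 of 57, against 6.75%. Of the 19 under imiquimod, 18 were lower in KO. The share of all genes lower in KO at this p was not taken. The elongation genes had estimates between -0.91 and -0.07 under imiquimod, led by Elovl6, which averaged 10.01 in KO and 10.91 in control imiquimod arrays (adjusted p = 0.12). Sebaceous markers lay between -0.87 and -0.15 in the same comparison, with 0 of 9 past the test. With the hair list as a covariate, 4 of the 57 passed as lower in KO (Elovl6, Elovl5, Cers4 and Lipn), and without KO imiquimod replicate 3 it was 2 (Elovl5 and Sgpl1, adjusted p = 0.0413 and 0.0465). No share of all genes was taken for either fit, so these counts have no background beside them. The genes Elovl5, Elovl6, Tecr, Cers4 and Sgpl1 were named after their values were seen.

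Markers of other cells were set beside the ceramide genes. Granular and suprabasal markers had 7 of 12 higher and 1 lower in each genotype. Their medians were 0.86 in KO and 0.77 in control skin, beside 0.97 and 1.15 for the 9 ceramide genes. Their mean ranged from 9.58 to 10.38 in KO imiquimod and 9.15 to 9.51 in KO mock arrays, and from 10.10 to 10.41 in control imiquimod and 9.17 to 9.76 in control mock arrays. By group, this mean was 9.31 with mock and 10.05 with imiquimod in KO skin, and 9.37 and 10.30 in control skin. The mean of the 9 ceramide genes was 8.64 and 9.60 in KO skin, and 8.71 and 9.62 in control skin. Flg, encoding filaggrin, rose by 2.23 in KO and 2.74 in control skin, and the suprabasal keratin gene Krt77 fell by 3.59 and by 1.30. Basal markers had 3 of 6 higher and 1 lower in KO, and 2 higher and 1 lower in control skin; the mean of the 6 ranged from 9.17 to 9.31 in KO imiquimod and 8.97 to 9.57 in KO mock arrays, and from 9.09 to 9.29 in control imiquimod and 8.89 to 9.44 in control mock arrays. Markers of monocytes and macrophages, cells rich in lysosomes, had 4 of 12 higher in each genotype, and their mean ranged from 7.60 to 8.11 in KO imiquimod and 6.98 to 7.84 in KO mock arrays, and from 7.31 to 8.22 in control imiquimod and 6.70 to 7.78 in control mock arrays. Keratinocyte stress genes had 5 of 6 higher in each genotype (medians 4.49 in KO and 3.68 in control skin), and neutrophil markers had 4 of 9 higher in KO and 1 of 9 in control skin. Between genotypes 0 of 9 neutrophil markers passed under imiquimod, and 0 of 9 in the interaction. Their mean was 6.23 in KO imiquimod replicate 4, against 4.82 to 5.17 in the other KO imiquimod arrays and 4.44 to 4.72 in control imiquimod arrays. Some markers of cells below the epidermis passed as well, fewer of them in control skin for fat, muscle and endothelium. Of all genes, 11.1% were higher and 9.71% lower in KO skin, and 6.47% and 4.37% in control skin. Adipocyte markers had 5 of 8 lower in KO and 1 of 8 in control skin (medians -0.99 and -0.27), led by Fabp4, a lipid carrier of fat cells, at -1.38 and -0.85. Their mean ranged from 6.75 to 7.57 in KO imiquimod and 7.57 to 9.20 in KO mock arrays, and from 7.45 to 7.99 in control imiquimod and 7.40 to 8.35 in control mock arrays. Skeletal muscle markers had 1 of 8 higher and 5 lower in KO, and 1 higher and 0 lower in control skin (medians -0.84 and 0.03), with a mean from 8.15 to 9.05 in KO imiquimod and 9.06 to 9.81 in KO mock arrays, and from 9.05 to 9.94 in control imiquimod and 8.80 to 10.14 in control mock arrays. Fibroblast markers had 2 of 7 lower in KO and 3 of 7 in control skin (medians -0.30 and -0.28), with the collagen gene Col1a1 at -0.93 and -1.06. Endothelial markers had 1 of 6 lower in KO and 0 of 6 in control skin. No adipocyte, muscle, fibroblast or endothelial marker passed the test of the interaction. Between genotypes under imiquimod, 1 of 8 muscle markers passed as lower in KO and 0 of 8 adipocyte markers passed. The part of these cells in the ceramide genes was not tested.

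The hair level of a sample moved with the members to differing degrees. Within groups, deviations of Abca12 from its group mean correlated with those of the hair genes at r = -0.92, of Elovl4 at -0.72, of Asah1 at -0.63 and of Cyp4f39 at -0.57. Smpd1 was at -0.30, Sptlc2 at -0.29, Cers3 at -0.20, Ugcg at 0.07 and Pnpla1 at 0.46 (20 arrays, a description; all genes of an array share its tissue piece). Hair was not the one list that went with Abca12, whose deviations also correlated with those of skeletal muscle at 0.88, of endothelium at 0.83 and of monocytes and macrophages at 0.82. For most other members a list other than hair had the r farthest from 0. It was sebaceous gland markers for Elovl4 (0.89) and fibroblast markers for Pnpla1 (-0.78). Stress keratinocyte genes led for Ugcg (0.76), and monocyte and macrophage markers for Asah1 (0.69). Cers3, Sptlc2 and Smpd1 also had a list farther from 0 than hair, and for Cyp4f39 the sebaceous list (0.57) equalled it in size. Among mock arrays, Pnpla1 was lowest in those of low hair level, at 6.67 and 6.76 in KO replicates 2 and 3 and 7.02 in control replicate 5, and Abca12 was highest in KO replicate 3 and control replicate 5, at 9.96 and 10.27. Control imiquimod replicate 5, with hair genes as high as in mock skin, read 10.69 for Abca12, above every control mock array, and control mock replicate 5, with hair genes as low as in treated skin, read 10.27, below every treated array. With the hair list as a covariate all 8 genes passed in both genotypes, Abca12 at 0.99 in KO and 0.92 in control skin and Pnpla1 at 1.16 and 0.93. Without the array of each group farthest in hair genes, 8 passed in KO and 7 in control skin, where Pnpla1 was lost (0.59, adjusted p = 0.0614).

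**Figure D4:**
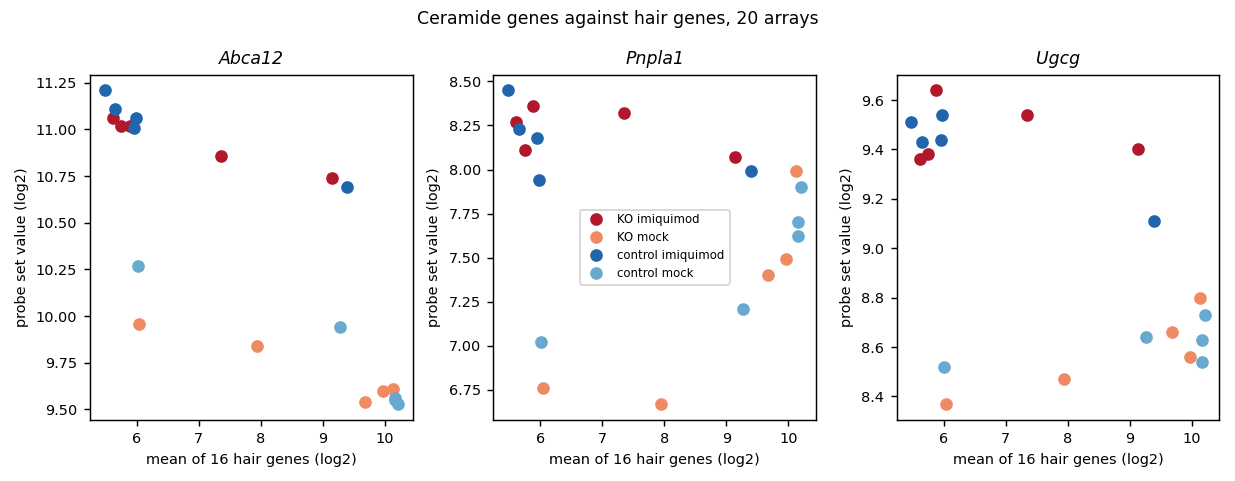
Probe set value (log2) of Abca12, Pnpla1 and Ugcg against the mean of 16 hair genes (log2) in each of the 20 arrays, coloured by group. Imiquimod arrays lie above mock arrays of the same genotype at low and high hair levels, and within a treatment Abca12 is lower where hair genes are higher.

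The members did not vary as 1 unit inside groups. Deviations from group means correlated at r = 0.80 for Abca12 with Elovl4, and at 0.66 to 0.69 for Cers3 with Ugcg and Sptlc2, but at -0.51 for Abca12 with Pnpla1 and -0.06 for Abca12 with Ugcg (20 arrays, a description). By the same measure the gene most like Abca12 among all others was Sptlc3, another subunit of serine palmitoyltransferase (r = 0.96), followed by Dmkn (0.94) and Slc35f5 (0.93). Elovl4 was most like Teddm3 (0.94), Dhrs7 (0.92) and Lipn (0.92). Smpd1 was most like Blmh (0.88), Ephx3 (0.81) and Dsc1 (0.80), and those 3 also headed its list over the uncentred values of the 20 arrays (0.99, 0.99 and 0.98). Cyp4f39 was most like Plpp6 on both measures (0.85 for deviations and 0.99 for values). Over uncentred values, which carry the treatment, Cers3 was most like Trex2, Glrx and Lce3c (0.99, 0.99 and 0.98). Ugcg was most like Sult2b1, Epn3 and Slc10a6 (0.98 each), Sptlc2 most like Stfa2l1, Csta3 and Pla2g4e (0.98 each), and Pnpla1 most like Slc9a3r1 (0.95). Asah1, which did not follow the treatment, was most like 2310075C17Rik over values (0.84) and Epsti1 over deviations (0.87).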

How the data were processed

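Total RNA from whole skin (Trizol and column purification, 200 ng labelled with the WT PLUS kit, per the labels' protocols) was hybridised to Affymetrix mouse arrays. The authors deposited 41345 probe set values per array, taken as log2 from their range (1.41 to 13.33); log base, summarisation and normalization are unstated in the sources used here; array medians lay between 4.94 and 5.04. Probe sets were named through the platform's annotation; 23521 had 1 symbol, and the brightest per gene gave 22180 genes, with no filter on dim genes. Of the pathway lists, 3 genes had no single-symbol probe set and are not reported here, and Cert1 stood for Col4a3bp. Groups were compared in R 4.3.3 with limma 3.58.1 (1 mean per group, 20 arrays, 16 residual degrees of freedom), two-sided, with Benjamini-Hochberg adjustment over all genes. Per group 5 separate animals were used, per the series design; the number of arrays limits the precision. Members, lists, tests and the rule for named genes (all members, up to 3 rises and 3 falls per pathway list and contrast, up to 2 genes per marker list, 3 genes most like each member) were chosen with earlier results of these data known. The code of the fit was run on simulated data with noise independent between genes. Such data lack the tissue differences that genes of a real array share. Deviations of same-numbered arrays of different groups correlated at -0.71 to 0.43, which does not tell whether they shared a batch. The labels name no batch, and the replicate number was used as a block only as an alternative.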

Additional observations from a re-analysis of the deposited data

Results flagged for a closer look

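Among 36 sets of 5 arrays (9 genes in 4 groups), 2 had an array far from the other 4, where chance gives about 1 in 20, or 1.80. Ugcg was low in control imiquimod replicate 5, at 9.11 against 9.43 to 9.54 in the others, and this was the treated control with high hair genes. Smpd1 was low in control mock replicate 3, at 7.86 against 8.17 to 8.22 in the others. No member had an imiquimod response that differed between KO and control skin in the test of the interaction.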

How the results depend on the processing

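With imiquimod in KO skin 8 members passed under all 12 alternatives and without each of 10 arrays, and in control skin 7 or 8, the lost gene always being Pnpla1. Pnpla1 in control skin lost its call with the replicate number as a block (adjusted p = 0.0719), with quantile normalization (adjusted p = 0.0601) and without the 4 arrays farthest in hair genes (adjusted p = 0.0614); the cause was not tested. The replicate block also ended the Cers6 call in control skin (adjusted p = 0.0694). Beyond Pnpla1 it changed no call of a member. Whether same-numbered arrays shared a batch cannot be told from the check of their deviations. The pathway list had 31 to 37 calls in KO and 32 to 40 in control skin over the alternatives (31 and 35 as reported), and 28 to 34 and 31 to 37 when 1 array was left out; the lower calls among them went to 11 in KO and 5 in control skin with the hair covariate (5 and 2 as reported). Between genotypes under imiquimod it had 4 calls with the hair covariate, and 0 to 2 when 1 array was left out, against 0 as reported. The cause was not tested, and no share of all genes was taken for any alternative. Members had 0 calls between genotypes and in the interaction under every alternative run. The Zfp36 difference without control mock replicate 3 was -1.96 (exact permutation p = 0.0556), and it ran from -1.85 to -1.37 under imiquimod and from -2.45 to -1.54 in mock when 1 array was left out. No background measure was used, so the fold of a dim probe set has an uncertain size.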
